A study of Mus musculus with 4 samples.

Results

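The ubiquitin-specific proteases (USPs) were examined in mouse bone marrow progenitors with and without Asxl1. Members were the single loci of the deposited table with a gene name made of Usp and a number, Usp18 aside, and a deposited value of 10 or more in 2 or more of the libraries. The name rule took 45 loci, and 42 of them passed the requirement on level, out of 13764 loci tested and 17956 single loci in the table. The rule used names and level. Usp18 was set aside by name, and members were chosen with earlier results of these data known, so the choice was not blind to genotype. The 3 loci under the minimum were Usp13, with 2 reads in 1 WT library and 0 in the others, Usp43, with 0 or 1 read per library, and the locus of Usp29 and Zim3, with 4 to 8 reads. Of the 42 members, 23 carried a single name and 5 carried aliases of the same gene. Another 5, Usp46 among them, carried a cDNA clone name that could not be matched to a gene. The remaining 9 also carried the name of another gene, so that their reads cannot be assigned to the USP alone.

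RNA sequencing was performed on bone marrow Lin-Kit+ cells, a lineage-negative, Kit-positive population that holds stem and progenitor cells. The strain was C57BL/6. The wild-type (WT) group and the Asxl1-/- (KO) group had 2 libraries each; the labels state neither age, nor treatment, nor how the allele was made. Nothing in the labels says that replicates were separate animals, so p-values measure only the spread between these libraries. Xist was high in replicate 1 of both genotypes (103006 in WT, 89290.1 in KO) and low in replicate 2 (2123 and 147), while the locus of Ddx3x and Y-linked Ddx3y stood at 5.18 and 3.79 in replicate 1 against 7385 and 7947 in replicate 2. Replicate numbers therefore carry a difference in sex in both groups, and the 2 libraries of a genotype cannot come from 1 animal. That difference is part of the spread that the p-values measure. Recovered depths were 46597871 and 49764454 reads in WT, against 83586916 and 76688583 in KO. All values below are on the deposited scale, on which the authors multiplied the counts of each library by 1 factor, unless another scale is named.

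The labels were checked on Asxl1 (chr2:153171874-153229743, mm9), the gene of a Polycomb-associated protein that activates the deubiquitinase Bap1. It stood at 9742 and 9472 in WT and at 146 and 135 in KO, a log2 change of -6.09 ± 0.09 (SE, n = 2 per group; limma, adjusted p = 8.89e-06).

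USP enzymes are cysteine proteases that remove ubiquitin from proteins. They can reverse the signal that sends a protein to the proteasome, and they can also remove the single ubiquitin that acts as a switch on histones, receptors and repair proteins. They form the most numerous family of deubiquitinases, and many work only in complex with a partner. In blood-forming cells, USP members are known for their part in histone H2A and H2B deubiquitination, in the Fanconi anemia repair pathway and in the control of p53 and MYC. Asxl1 acts with Bap1, an H2A deubiquitinase of another family, and the series is titled for the interaction of Asxl1 with the cohesin complex.

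Promoters are shown for the 4 members that passed the test between genotypes and have an entry in the RefSeq promoter table (GRCm38.p6), to place the sequence beside the values that follow. Each run is the 250 bases before the annotated start, 5′ to 3′ on the strand of the gene. Usp32 is at chr11:85139956-85140205 on the minus strand, Usp46 at chr5:74068412-74068661 on the minus strand, Usp40 at chr1:88008552-88008801 on the minus strand and Usp10 at chr8:119910110-119910359 on the plus strand. Capitals mark a TATAAA match, the letters of a TATA box. In the Usp40 run the match lies nearer the first base of the run than the annotated start. Whether it works as a TATA box was not tested.
Usp32: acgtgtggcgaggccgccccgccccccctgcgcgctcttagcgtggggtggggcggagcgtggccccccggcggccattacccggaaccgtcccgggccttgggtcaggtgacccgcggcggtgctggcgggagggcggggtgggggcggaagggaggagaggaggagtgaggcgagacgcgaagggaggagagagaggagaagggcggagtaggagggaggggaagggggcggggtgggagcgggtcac
Usp46: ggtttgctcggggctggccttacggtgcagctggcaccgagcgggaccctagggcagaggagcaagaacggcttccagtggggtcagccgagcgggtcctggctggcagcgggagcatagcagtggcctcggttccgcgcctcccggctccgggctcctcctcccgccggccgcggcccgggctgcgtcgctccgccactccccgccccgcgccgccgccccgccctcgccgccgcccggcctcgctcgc
Usp40: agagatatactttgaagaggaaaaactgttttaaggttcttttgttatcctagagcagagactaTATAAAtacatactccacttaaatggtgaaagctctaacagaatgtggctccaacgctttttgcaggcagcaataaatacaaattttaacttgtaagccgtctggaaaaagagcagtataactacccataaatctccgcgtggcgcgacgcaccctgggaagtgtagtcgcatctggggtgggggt
Usp10: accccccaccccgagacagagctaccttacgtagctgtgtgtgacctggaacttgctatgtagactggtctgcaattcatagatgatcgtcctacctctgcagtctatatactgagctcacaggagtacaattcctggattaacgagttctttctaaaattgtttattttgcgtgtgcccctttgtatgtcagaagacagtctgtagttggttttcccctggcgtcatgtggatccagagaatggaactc
The runs of Usp32 and Usp46, both higher in KO, held 26 and 33 CpG dinucleotides with a GC content of 75.2% and 77.6%. Those of Usp40 and Usp10, both lower in KO, held 8 and 6 CpG with a GC content of 42.0% and 46.4%. The start that these cells use was not measured, and 4 promoters are too few for a comparison. Over the family, 34 of 43 USP symbols matched the table, with a median of 23.5 CpG and 64.6% GC, beside 6 CpG and 52.4% over all 32851 promoters of the table. That full set, also used for the motifs below, was not matched to the USPs by gene type or level.

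Short motifs were searched on both strands of the same 250 bases. A match to TATAAA was in 2 of 34 USP promoters (5.88%), those of Usp40 and Usp19, and in 12.4% of all promoters. CCAAT was in 17.6% of USP promoters and in 33.8% of all. The ETS site CCGGAAGT was in 3 of 34 (8.82%), those of Usp11, Usp16 and Usp30, and in 2.88% of all. The E-box CACGTG was in 8.82%, with Usp16, Usp31 and Usp4, beside 6.02%. The NRF1 site GCGCATGCG was in that of Usp48 alone (2.94% beside 1.45%). The interferon response core TTTCNNTTT was in 5.88%, with Usp49 and Usp51, beside 9.37%. No USP promoter held the CRE letters TGACGTCA, which 1.55% of all promoters held. Of the printed sequences, those of Usp32, Usp46 and Usp10 held none of the 7 motifs.

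To compare levels between genes, reads scaled to the same total in each library (CPM) were divided by the length in kilobases of the longest annotated protein-coding transcript, for the 33 members without the name of another gene. Usp1 and Usp7 led. Usp1, the enzyme that deubiquitinates Fancd2 and Pcna, averaged 85.1 over the 4 libraries, and Usp7, which acts on both p53 and its ligase Mdm2, averaged 84.4. The range of Usp1 (82.7 to 87.0) lay within that of Usp7 (78.6 to 89.5), so this pair was not separated. Usp5, which takes apart free ubiquitin chains, followed at 50.7, then Usp25 at 46.5 and Usp39, a splicing factor without protease activity, at 44.5. At the low end were Usp53 at 1.78, Usp44 at 0.526, Usp35 at 0.323 and Usp51 at 0.279 CPM per kilobase. Usp44, Usp35 and Usp51 rested on 17 to 121 reads per library, and their order could change within that spread.

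**Figure D1:**
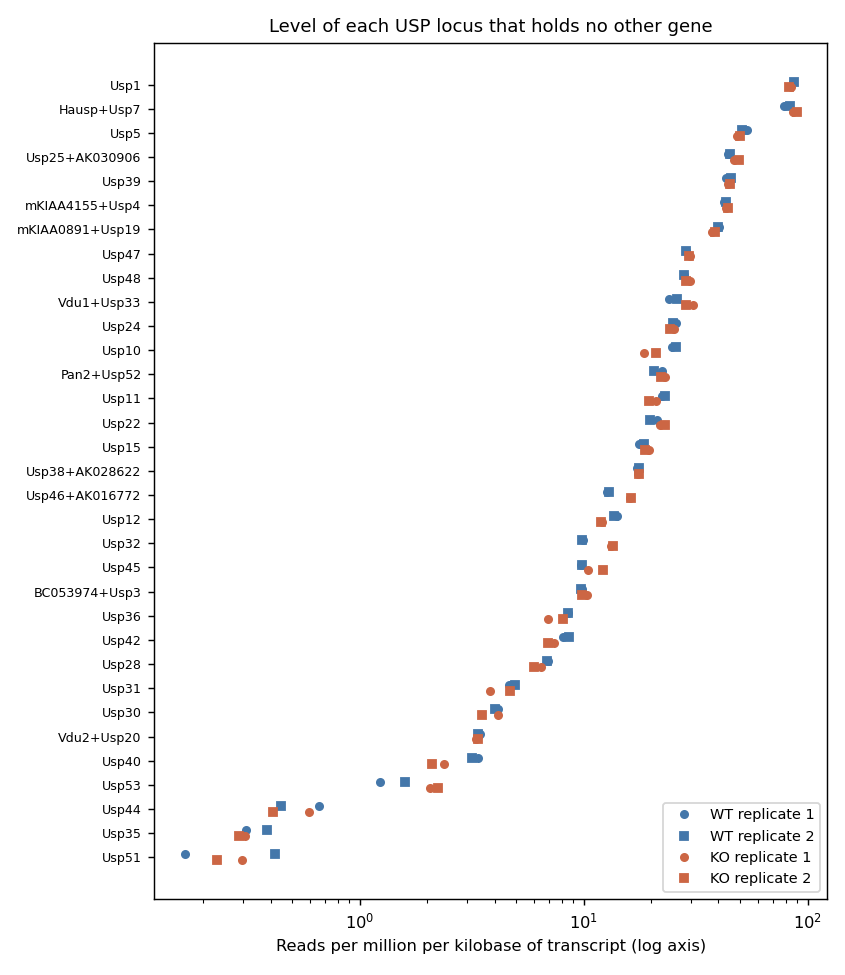
Level of each USP locus without another gene in its name, in CPM per kilobase on a log axis, with 1 point per library and WT and KO in separate colours. Usp1 and Usp7 are at the top near 85 and Usp51 is at the bottom at 0.279, and for most loci the 4 points lie close together compared with the distance between loci.

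The family as a whole changed little with genotype. The summed level of the 42 loci was 4918 and 4927 CPM in WT, against 4834 and 4923 in KO, and that of the 33 loci without another gene was 3397 and 3432 in WT, against 3468 and 3491 in KO. On the deposited scale the sum of the 42 was 296641 and 298822 in WT, against 306039 and 311361 in KO, so its direction turned with the scaling. That of the 33 was 204865 and 208155 in WT, against 219583 and 220749 in KO, and was higher in KO on both scales. In the limma fit over all loci, 4 USP loci passed an adjusted p of 0.05 with higher values in KO and 2 with lower values. The 4 were Usp32, Usp46, Usp33 and Usp53, and the other two were Usp40 and Usp10. This was 6 of 42 loci, or 14.3%, beside 20.9% of all loci tested, of which 11.9% were higher and 8.97% lower. By edgeR on the recovered reads, which called 20.6% of all loci, 7 USP loci passed, the same 6 and Usp25. Scaling decided part of the split by direction. With CPM scaling the USP count was 4 higher and 4 lower, Usp12 and the Usp21 locus being added, and the share of higher calls over all loci was 39.2% in place of 57.0%. With upper-quartile scaling it was 4 and 3, beside 42.6% over all loci.

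Sizes of change were small. The median log2 change of the 42 loci was 0.04, beside -0.01 over all loci, and its sign turned with another scaling (-0.03 with CPM scaling, -0.02 with the upper quartile). The median size of change regardless of sign was 0.12, beside 0.21 over all loci. Only Usp53 was past a fitted change of 1.5-fold, 1 of 42 (2.38%) beside 19.2% of all loci. The USP loci were better measured than most, with a median level of 5101 against 1537. Among the 7911 loci with a mean of at least 1000, 0 of 37 USP loci and 6.79% of all were past 1.5-fold, the median size was 0.12 against 0.14, and 4 of 37 (10.8%) against 25.2% passed the limma test. For 36 of the 42 loci the 95% interval of the fitted change lay within 1.5-fold in either direction. The exceptions were Usp32, Usp53, Usp40, Usp35, Usp44 and Usp51. Over all loci tested the interval lay within 1.5-fold for 7748 of 13764. Among loci with a mean of at least 1000 it did so for 36 of 37 USP loci and 6692 of all 7911.

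Both libraries of one genotype lay beyond both of the other for 29 of 42 USP loci (69.0%), beside 66.1% of all loci, 19 with KO above and 10 with KO below. This split also followed the scaling: on the CPM scale it was 12 above and 17 below. The number of non-overlapping loci was therefore near the background, and its direction depended on the scaling.

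**Figure D2:**
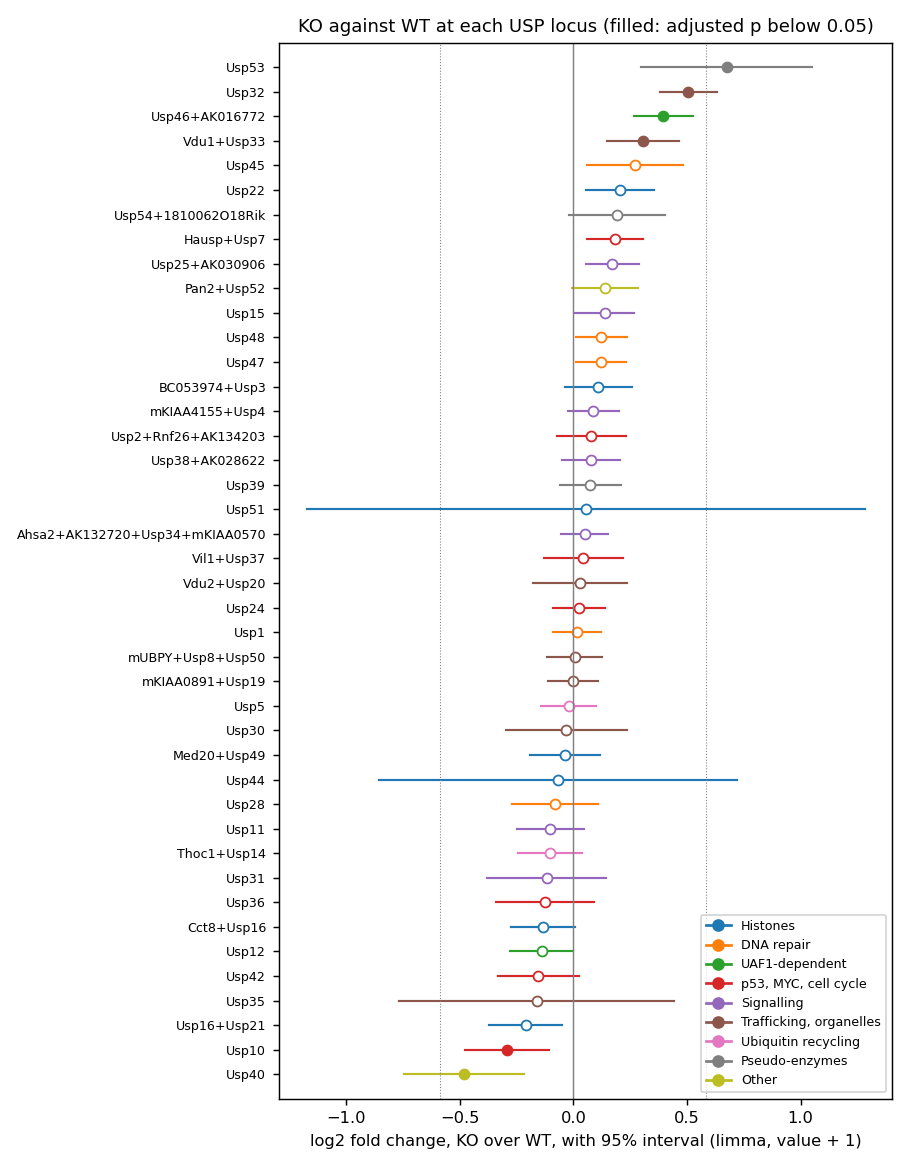
Fitted log2 change, KO against WT, of the 42 USP loci with its 95% interval (limma), ordered by value, coloured by role group, with filled circles for loci past an adjusted p of 0.05 and dotted lines at 1.5-fold. Most points lie between -0.2 and 0.2; Usp53 is highest at 0.67 and Usp40 lowest at -0.48, and the widest intervals belong to Usp51, Usp44 and Usp35.

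**Figure D3:**
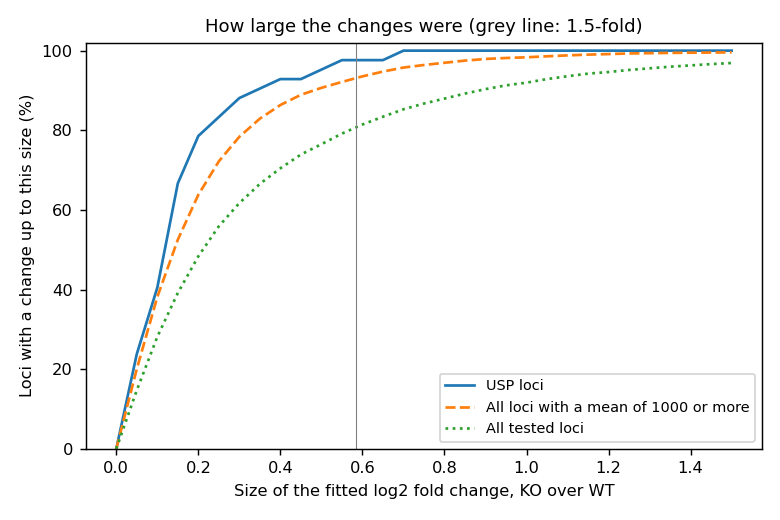
Cumulative share of loci (percent) by size of the fitted log2 change regardless of sign, for the USP loci, all loci tested and loci with a mean of at least 1000, with a grey line at 1.5-fold. At a size of 0.2 the curves stand at 78.6%, 48.4% and 63.8%.

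Of the enzymes of endosomes, receptors and organelles, 2 of 7 loci rose and none fell, beside 11.9% of all loci that were higher and 8.97% that were lower; in so short a list this is near the background. Usp32 (chr11:84797989-84953457, mm9), an enzyme of the Golgi and late endosomes, was 4219.5 and 4202 in WT, against 5941 and 6019.6 in KO. Both KO libraries lay above both WT libraries, and the libraries of a genotype were close to each other. The mean rose from 4211 ± 12.7 to 5980.1 ± 55.9 (SD, n = 2 each), a log2 change of 0.51 ± 0.05 (SE; limma, adjusted p = 0.00311), and the call was kept with each library left out in turn.

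Usp33 (with its alias Vdu1, chr3:152009444-152056578), which stabilises the Robo1 and beta2-adrenergic receptors, was 6088 and 6596 in WT, against 8115 and 7575 in KO. The groups did not overlap, but the change was 0.41 in replicate 1 and 0.20 in replicate 2. Its fitted log2 change was 0.31 ± 0.06 (limma, adjusted p = 0.0244), with adjusted p = 0.153 without WT replicate 1 and 0.0595 without WT replicate 2. Its close relative Usp20 (Vdu2) was near 1060 in each library, 1061 and 1040.3 in WT, against 1063 and 1082 in KO. The mitochondrial enzyme Usp30, the endoplasmic reticulum enzyme Usp19 and the endosomal Usp8 locus had log2 changes of -0.03, -0.00 and 0.01. The intervals of Usp19 (-0.11 to 0.11) and of the Usp8 locus (-0.12 to 0.13) span little change in either direction.

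Usp46 and Usp12 are close paralogs that need the WD40 protein Wdr48 (UAF1), as Usp1 does. Usp46 (with clone AK016772, chr5:74396061-74464436) was 3651 and 3731 in WT, against 4846 and 4864 in KO, 3691 ± 56.5 and 4855 ± 12.3 (SD, n = 2 each). The groups did not overlap and the KO libraries were nearly equal. The log2 change was 0.40 ± 0.05 (limma, adjusted p = 0.00717); without WT replicate 1 the adjusted p was 0.0601. Usp12 was 3673 and 3575 in WT, against 3295 and 3282 in KO, a change of -0.14 ± 0.06 in the opposite direction that did not pass (limma, adjusted p = 0.13). With CPM scaling it did pass. The difference between the paralogs was not tested.

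Of 3 members other than Pan2 that were long annotated as lacking catalytic activity, 1 rose. Usp53 (chr3:122636518-122687365), a protein of tight junctions, was the member with the largest fitted change, at 458 and 599 in WT, against 803 and 871 in KO. The KO libraries were above both WT libraries, and WT replicate 1 was the lowest of the 4. The log2 change was 0.67 ± 0.15 (limma, adjusted p = 0.0307), with adjusted p = 0.141 without WT replicate 1 and 0.0541 without KO replicate 2. Its relative Usp54, merged with another gene, had a change of 0.19, and Usp39 one of 0.08.

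Both members that fell were lower by less than 1.5-fold. Usp40 (chr1:89841695-89905126), a little studied enzyme, was 1028 and 972 in WT, against 761 and 673 in KO. All KO values were under all WT values, at 71.7% of the WT mean. The log2 change was -0.48 ± 0.11 (limma, adjusted p = 0.0292), with adjusted p = 0.174 without WT replicate 1 and 0.113 without WT replicate 2.

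Usp10 (chr8:122434751-122481457), which deubiquitinates p53 and binds G3bp1, was 5576 and 5848 in WT, against 4377 and 4963 in KO. The groups did not overlap, with KO replicate 1 the lowest. The mean was 81.8% of WT and the log2 change was -0.29 ± 0.08 (limma, adjusted p = 0.0428). Of the 6 calls this was the nearest to the threshold. It was lost without WT replicate 1 (adjusted p = 0.133), without WT replicate 2 (0.195), without KO replicate 1 (0.0615) and with no filter on low values (0.0520). All 6 loci kept the sign of their log2 change with either WT replicate left out. Without WT replicate 1, Usp32, Usp46, Usp33 and Usp53 stood at 0.51, 0.38, 0.25 and 0.48, and Usp40 and Usp10 at -0.44 and -0.33. Without WT replicate 2, the same loci stood at 0.50, 0.41, 0.36, 0.87, -0.52 and -0.26. Calls over all loci also became fewer with a WT library left out, so a call lost there is not particular to these loci. The 6 loci stayed on the same side, with no overlap, on the CPM scale.

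**Figure D4:**
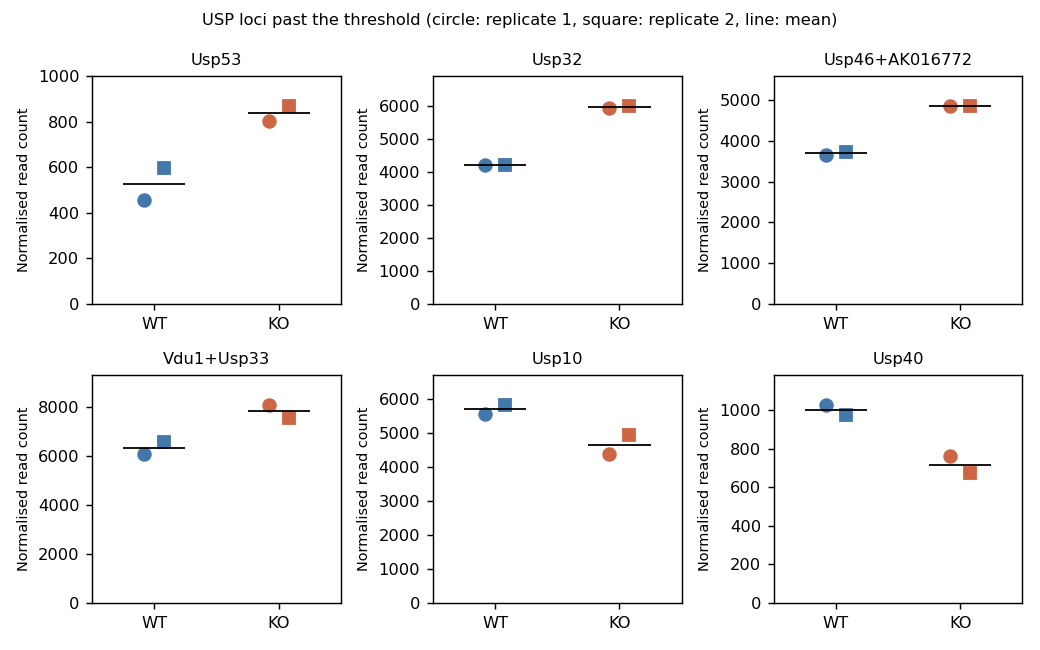
Deposited value in each of the 4 libraries for the 6 USP loci past an adjusted p of 0.05, 1 panel per locus with its own axis from 0, circles for replicate 1, squares for replicate 2 and a line at the mean of each genotype. Usp32, Usp46, Usp33 and Usp53 have both KO points above both WT points, and Usp40 and Usp10 have both below.

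The p53, MDM2, MYC and cell cycle group had 7 loci, of which Usp10 alone passed. Usp7 (with its alias Hausp, chr16:8688814-8792401) was 22502 and 23944 in WT, against 25854 and 26863 in KO. Both KO libraries were higher, and the change of 0.18 ± 0.05 missed the threshold (limma, adjusted p = 0.0529). It passed with DESeq2 (adjusted p = 0.0131) and without KO replicate 1 (0.0390). Usp42 and Usp36 had changes of -0.15 and -0.13, Usp24 one of 0.02.

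Of the enzymes that act on histones H2A and H2B, none of 7 loci passed by limma. Usp22, the catalytic subunit of the SAGA deubiquitinase module, was 5677 and 5299 in WT, against 6142 and 6502 in KO. KO was higher in both libraries, with a log2 change of 0.20 ± 0.06 (limma, adjusted p = 0.0639; DESeq2, adjusted p = 0.0320). The locus named Usp16+Usp21 lies on chromosome 1 (chr1:173212083-173218092, mm9), where RefSeq places Usp21 and not Usp16. This H2A enzyme locus was 3185 and 3095 in WT, against 2805 and 2629 in KO, a change of -0.21 ± 0.07 (limma, adjusted p = 0.0706). It passed by limma with CPM scaling (adjusted p = 0.0327) and with upper-quartile scaling (0.0387). Usp16, a second H2A enzyme, shares its locus with the chaperonin gene Cct8 and had a change of -0.13 that did not pass (limma, adjusted p = 0.146). Usp3 and the Usp49 locus had changes of 0.11 and -0.04. Usp44 was high in replicate 1 and low in replicate 2 of both genotypes, 97.1 and 65.9 in WT, against 91.7 and 63.5 in KO. X-linked Usp51 was 22.0 and 56.1 in WT, against 41.7 and 32.2 in KO, so that a direction was not detectable at this depth (95% interval of the log2 change -1.17 to 1.28).

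The DNA repair group, 5 loci, also had no member past the test by limma. Usp1 (chr4:98590500-98602224) was 18566 and 18876 in WT, against 19131 and 18713 in KO. The groups overlapped, and the log2 change of 0.02 ± 0.04 had an interval of -0.09 to 0.12 (limma, adjusted p = 0.824); its sign was negative with CPM scaling (-0.05). Usp45, which acts on the Ercc1 nuclease, was 3507 and 3592 in WT, against 3955 and 4644 in KO. The KO libraries were higher but far apart, and the change was 0.27 ± 0.09 (limma, adjusted p = 0.0739), which passed with DESeq2 (adjusted p = 0.0272) and without KO replicate 1 (0.00803). Usp47 and Usp48 had changes of 0.12 each, and Usp28, which stabilises MYC, one of -0.08.

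The signalling group, 7 loci, had none past the test by limma. Usp25, which trims ubiquitin from signalling proteins of the innate immune response, was 12757 and 13091 in WT, against 14231 and 14896 in KO. KO was higher in both, by 0.17 ± 0.05 (limma, adjusted p = 0.0534), and it passed with edgeR (adjusted p = 0.0468) and DESeq2 (adjusted p = 0.0184). Usp15, which acts on the TGF-beta pathway, had 0.14, Usp4 0.09, the Usp34 locus 0.05 and Usp38 0.08. X-linked Usp11 was 4700.03 and 4848 in WT, against 4599.8 and 4303 in KO, a change of -0.10, and Usp31 had -0.12 with overlapping groups.

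In the recycling group, Usp5 was 10366 and 9920.4 in WT, against 9846 and 10155 in KO. The groups overlapped (-0.02 ± 0.05, interval -0.14 to 0.10; limma, adjusted p = 0.798). The locus of Thoc1 and the proteasome-bound Usp14 was 15779 and 15662 in WT, against 13992 and 15320.2 in KO, a change of -0.10 ± 0.06 (limma, adjusted p = 0.243). Pan2 (Usp52), which lacks protease activity and belongs to a deadenylase, had a change of 0.14 (limma, adjusted p = 0.149).

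Other deubiquitinases were set beside the USPs, among them Usp9x and Usp27x, whose names end in a letter. Of 39 loci, Pan2 included, 2 were higher, 1 lower, and the median change was -0.01. This was 7.69% of the list, beside 20.9% of all loci tested. Tnfaip3 (A20), an ovarian tumour domain enzyme that limits NF-kB signalling, was 4736 and 5157 in WT, against 9709.8 and 11465 in KO. With a log2 change of 1.09 ± 0.09 (limma, adjusted p = 0.00194) it exceeded that of each USP member. The Zranb1 locus rose by 0.39 ± 0.07 (adjusted p = 0.0146) and Uchl3 fell by 0.35 (log2 change -0.35 ± 0.07, adjusted p = 0.0250), both by limma; each of these calls was lost without WT replicate 1 (adjusted p = 0.0866 and 0.0875) and without WT replicate 2 (0.0675 and 0.160). Bap1, the enzyme that Asxl1 activates, was 6505 and 6537 in WT, against 6795 and 6703 in KO, a change of 0.05 ± 0.05 (limma, adjusted p = 0.494) whose sign turned with CPM scaling (-0.02).

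Of 18 loci of USP partners and regulators, 3 rose and 1 fell, with a median change of 0.01. This was 22.2% of the list, near the 20.9% of all loci tested. G3bp1, the partner of Usp10, was 24282 and 23309 in WT, against 18812 and 20416 in KO. It fell as Usp10 did, with a log2 change of -0.28 ± 0.06 (limma, adjusted p = 0.0218), a call lost without WT replicate 1 (0.135) and without WT replicate 2 (0.0786). Atad5, which brings the Usp1 complex to Pcna, rose by 0.25 ± 0.06 (limma, adjusted p = 0.0323), but not with CPM scaling (0.0690) nor without WT replicate 1 (0.1002), WT replicate 2 (0.185) or KO replicate 2 (0.0534). Of the ataxin-7 family, whose members tie Usp22 to SAGA, Atxn7l1 rose by 0.38 ± 0.07 (limma, adjusted p = 0.0173; 0.111 without WT replicate 1). The locus of Atxn7l3 and Tmub2 rose by 0.18 ± 0.05 (limma, adjusted p = 0.0430; 0.118 with CPM scaling, and 0.0756 to 0.21 when WT replicate 1, WT replicate 2 or KO replicate 2 was left out).

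Of 27 genes whose proteins USP enzymes act on, 4 rose and 3 fell, with a median of -0.00. This was 25.9% of the list, near the 20.9% of all loci and the 25.2% of loci with a mean of at least 1000. Mdm2, a target of Usp7, was 5666 and 5831 in WT, against 8126 and 7699.7 in KO, a log2 change of 0.46 ± 0.05 (limma, adjusted p = 0.00473). Mcl1, an anti-apoptotic protein, changed by 0.47 ± 0.07 (adjusted p = 0.00952; 0.0560 without WT replicate 1). Trim25, an RNA-sensing pathway ligase that Usp15 acts on, was 8913 and 8978 in WT, against 5645 and 5657 in KO, a change of -0.66 ± 0.05 (limma, adjusted p = 0.00157). Myc, which Usp28 and Usp36 stabilise, changed by -0.39 ± 0.05 (limma, adjusted p = 0.0079; 0.0513 without WT replicate 1 and 0.0506 without WT replicate 2). These are transcript levels, and none of the files used here measures protein or ubiquitin.

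Usp18, which removes the ubiquitin-like protein Isg15 and is induced by interferon, was left out by the rule. It stood at 1010.2 and 1089 in WT, against 283 and 197 in KO, a log2 change of -2.15 ± 0.19 (limma, adjusted p = 0.00217), outside the -0.48 to 0.67 that the 42 members spanned.

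Markers of cell types moved with genotype beside these results. Of 13 neutrophil markers tested, 12 rose and none fell, and their summed values, in units of 1000, were 1086 and 1208 in WT, against 2185 and 2043 in KO. Of 11 erythroid markers 5 rose, with sums of 108 and 124 in WT, against 164 and 199 in KO. Progenitor and stem cell markers fell in 7 of 12 loci (666 and 612, then 572 and 483). Most of that sum came from Mpo and Elane, neither of which passed (limma, adjusted p = 0.0747 and 0.281). B lineage markers fell in 3 of 10 (87.0 and 85.6, then 67.6 and 46.6). T and NK markers fell in 3 of 12 (9.59 and 8.68, then 7.76 and 6.57). Most of the T and NK sum came from Nkg7, which did not pass (limma, adjusted p = 0.177). Over all loci tested, 11.9% were higher and 8.97% lower. Of 10 monocyte and macrophage markers 2 rose and 4 fell (13.5 and 12.5, then 14.7 and 14.1), with a median log2 change of -0.53. Without Cd14, named after its values were seen, their sum was 11.5 and 11.2 in WT, against 8.52 and 9.67 in KO. None of the matched markers was at 0 in all libraries, and Ly6g and Hba-a1 were not analysed here. The part of cell composition in the USP values was not tested, and in bulk RNA fewer cells of a type and less RNA per cell cannot be told apart.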

How the data were processed

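Reads were aligned with STAR 2.3.1t to mm9, per the submitters' processing notes; how reads were counted, on which annotation and strand, and how they were scaled is not given in the sources used here. What the authors deposited is a signal: read counts multiplied by 1 factor per library, since 100% of values were whole multiples of 1 read (1.30, 1.22, 0.758 and 0.825 in WT 1, WT 2, KO 1 and KO 2) within 0.001 read. The table has 22849 rows, of which 4893 join neighbouring loci and were left out of the tests. The planned test was for counts; the unit led to limma 3.58.1 (R 4.3.3) with a trend on log2(value + 1), on which folds of low loci are understated, with genotype as the only term. The test took loci at 10 or more in 2 or more libraries, with p-values adjusted by Benjamini-Hochberg at 0.05. On recovered reads, edgeR 4.0.16 and DESeq2 1.42.0 were alternatives, as were other scalings, filters, pseudocounts, a replicate block, merged loci left out and each library left out. A count of 0 allows 3 reads, or 3.89, 3.66, 2.27 and 2.48 on the deposited scale, for counting error only. Scripts were tested on simulated data.

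Members and lists were chosen with earlier results of these data known. Named were Asxl1, Bap1, each called USP locus, the 3 other USP loci with the largest change and the 3 highest per kilobase, the locus with the smallest p in each role group without a call, and up to 4 called genes with the smallest p from each other list; further members are given by level or change only, and Usp12, Usp20, Usp44, Usp51, Usp11 and Usp18 were singled out after their values were seen. Gene names were matched through RefSeq, and promoters come from RefSeq (GRCm38.p6); transcript lengths come from GENCODE M21, a later build than the deposited mm9 coordinates. A list of ubiquitin genes is not reported here.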

Additional observations from a re-analysis of the deposited data

Results flagged for a closer look

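The row that joins the Vil1 and Usp37 locus with its neighbour Rqcd1 lies outside the tested loci and had its highest values in KO. It held 2 and 0 reads in WT, against 4 and 10 in KO, a KO mean of 5.64 on the deposited scale, which is above the WT libraries (2.59 and 0) and above the level that a count of 0 allows. Over the 30 joined rows that name a USP no library had more than 10 reads in a row, and the sums were 25 and 22 reads in WT, against 32 and 40 in KO. The KO libraries were deeper, and the difference was not tested.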

How the results depend on the processing

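Over 27 single loci and up to 15 alternatives, 341 values kept direction and side of the threshold, 33 lost their call, 15 gained one and 7 turned sign. Those 7 were Usp1 with CPM (-0.0498), with upper-quartile scaling (-0.0378) and without KO replicate 1 (range with 1 library left out -0.000539 to 0.0313), Usp5 without KO replicate 1 or WT replicate 1 (range -0.0519 to 0.0115), and Bap1 with CPM (-0.0157) or the upper quartile (-0.00371). The number of libraries, 2 per genotype, limits the precision, and depth limits Usp51, Usp44 and Usp35.

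For USP loci the count higher was 8 with DESeq2 and 2 with merged loci left out, and the count lower was 4 with CPM and 1 with no filter. With merged loci left out, 23 members remained by construction. Over all loci the count lower was 2058 with CPM and 1901 with the upper quartile, scalings that moved the median of all loci by -0.06 and -0.05. The USP median change, 0.0370, was -0.0281 with CPM, 0.0311 with DESeq2, 0.0261 with edgeR, 0.0328 with limma-voom, 0.0300 with a mean of at least 50, -0.0202 with merged loci left out, 0.0330 with a pseudocount of 5 and -0.0161 with the upper quartile. For other deubiquitinases the counts were 4 lower with CPM, 5 higher and 3 lower with DESeq2, 2 lower with a mean of at least 50, 1 higher with merged loci left out and 4 lower with the upper quartile. For partners they were 1 higher and 5 lower with CPM, 2 lower with DESeq2, 0 lower with merged loci left out, and 1 higher and 3 lower with the upper quartile. For substrates the count higher was 2 with merged loci left out. The cause of these shifts was not tested.

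With 1 library left out, the USP count ranged from 1 to 8 higher and 0 to 4 lower, that over all loci from 603 to 1714 and 266 to 1542, other deubiquitinases 1 to 4 and 0 to 3, partners 0 to 3 and 0 to 2, and substrates 1 to 5 and 1 to 3. The USP median change ranged from 0.0285 to 0.0599. The lone library was assumed to vary like the other group.

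No label says that a replicate number pairs libraries, and the deviations of same-numbered libraries correlated at 0.25 over all loci and 0.11 outside X and Y. Replicate numbers did carry a difference in sex in both genotypes, so the replicate block also took up that difference, which the main fit did not. With the replicate block, 7 USP loci were higher (Usp7, Usp25 and Usp45 added) and 2 lower, 4 and 3 other deubiquitinases and 2 partners lower, and 3439 loci were called in all.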
